A study of Mus musculus with 4 samples.

Results

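DNA replication and mitosis genes encode the machinery with which a dividing cell copies its chromosomes and parts them between daughter cells. The group described here holds 59 genes, chosen by symbol for their known roles, of the 13265 genes measured, and all 59 were found in the table. They were sorted by textbook function into 21 replication genes, 26 mitosis genes and 12 genes of broader use, such as tubulins and chromatin proteins, which dividing cells need in quantity and other cells also express. In total, 41 of the 59 had at least 200 corrected UMIs over all cells, 18 of them in the replication list, 12 in the mitosis list and 11 in the broad list. The other 18 (*Cdc6*, *Uhrf1*, *Tk1*, *Ccna2*, *Ccnb1*, *Aurka*, *Aurkb*, *Plk1*, *Bub1*, *Bub1b*, *Cdc20*, *Ube2c*, *Ube2s*, *Cdca3*, *Spc25*, *Tpx2*, *Kif23* and *Hmmr*) enter the sums and are described, but no difference of theirs was called.

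Before a cell divides, origins of replication are licensed by loading the MCM helicase, and the fork machinery then copies the DNA in S phase from nucleotides made on demand. In mitosis, Cdk1 bound to B-type cyclins drives entry, Aurora and Polo-like kinases and kinetochore proteins attach chromosomes to the spindle, and the anaphase-promoting complex with Cdc20 ends it. Transcripts of the replication machinery are classically driven by E2F factors before and during S phase, whereas many mitotic transcripts are repressed in resting cells and switched on in G2 by complexes that bind CHR elements beside CCAAT boxes. A resting T cell holds little of either set, and an activated T cell can divide several times a day.

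Single-cell RNA was sequenced from CD4+ T cells that carried a YFP mark of past *Il17a* expression, sorted from small intestine at an age of 7 to 8 months. All groups carried Il-17a-CRE and the YFP reporter. TGFβR-KO mice also carried floxed alleles of *Tgfbr2*, TGFβR-CA mice a constitutively active *Tgfbr1* behind a floxed stop cassette, and TGFβR-WT mice neither. The alleles were switched only in cells that had expressed *Il17a*, and each sample is a pool of mice. There was 1 sample of TGFβR-KO, 1 of TGFβR-CA and 2 of TGFβR-WT, and the cells labelled TGFβR-WT fell by barcode suffix into a set of 709 cells (the larger set) and one of 298 (the smaller set), neither of which could be tied to a sample. The methods place TGFβR-KO and TGFβR-CA in separate sequencing batches, each run beside TGFβR-WT.

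A level is the corrected UMIs of a gene in all cells of a group, per 10000 corrected UMIs of those cells. A UMI (unique molecular identifier) tags 1 captured RNA molecule, and correction by SCTransform had brought the cells to a common depth, with medians of 3794 corrected UMIs per cell in TGFβR-KO, 3918 in TGFβR-CA, 3440 in the larger and 3984.5 in the smaller TGFβR-WT set. The values are not raw counts, only 1 sample stands behind TGFβR-KO and 1 behind TGFβR-CA, and TGFβR-WT cells could not be tied to their 2 samples, so no difference between conditions was tested. A gene was called higher or lower where its level differed at least 1.5 times, in the same direction, from both TGFβR-WT sets. The share of all 7490 genes with at least 200 corrected UMIs that the same rule called is given beside each count by this rule. Of the 41 genes, 12 reached that minimum only through their Cycling cells (*Gins2*, *Pclaf*, *Rrm2*, *Ccnb2*, *Cdk1*, *Cenpe*, *Cenpf*, *Birc5*, *Cdca8*, *Nusap1*, *Kif11* and *Kif20b*). Comparisons outside Cycling therefore count the 29 genes with at least 200 corrected UMIs there (15 replication, 3 mitosis and 11 broad genes) beside all 7394 genes that have them. Capture by the 3′ chemistry differs between genes, and reads of *Cks1b*, *Cks2*, *Tubb5*, *Tuba1b*, *Hmgb2* and *H2afz* can be shared with near-identical copies, so levels of different genes are set side by side only as UMIs.

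Cell types are the 8 deposited cluster names. One of them, Cycling, held 77 of 2975 cells in TGFβR-KO (2.59%, exact 95% confidence interval 2.05 to 3.22), 9 of 1098 in TGFβR-CA (0.820%, 0.375 to 1.55) and 45 of 1007 in TGFβR-WT (4.47%, 3.28 to 5.93). The TGFβR-WT cells were 41 of the larger set (5.78%, 4.18 to 7.76) and 4 of the smaller set (1.34%, 0.367 to 3.40). These intervals cover counting error only. The T cell markers *Cd3e*, *Cd3d*, *Cd3g*, *Cd4*, *Trac*, *Trbc1* and *Trbc2* summed to 61.2 in Cycling cells of TGFβR-KO, 59.4 in TGFβR-CA, 72.1 in the larger and 45.1 in the smaller TGFβR-WT set, against 96.2 to 116 outside Cycling, and every Cycling cell had at least 1 of them. In Cycling cells *Cd79a*, *Ms4a1*, *Igkc*, *Lyz2*, *Epcam* and *Krt8* were at 0 in every library, and the 11 measured B cell and plasma cell markers summed to 0.620 in TGFβR-KO, 2.54 in TGFβR-CA, 0.930 in the larger and 0 in the smaller TGFβR-WT set. The 2 measured myeloid markers summed to 1.70, 1.02, 1.66 and 2.03 in that order, all from *Cst3*, against 1.88, 1.86, 1.93 and 2.19 outside Cycling. The 6 epithelial markers summed to 0.186, 0, 0.199 and 0 in Cycling cells.

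Some Cycling cells may have been counted in 2 libraries. Of 16 cell barcodes found in more than 1 library, 14 joined TGFβR-KO to the larger TGFβR-WT set, and in 11 of those both cells were Cycling. In each of the 11 pairs one cell had 1037 to 1318 detected genes and the other 1701 to 2009, and a median of 66.7% of the genes of the poorer cell was detected in its partner, against 48.1% in other Cycling cells of that library. The poorer cell was in the larger TGFβR-WT set in 7 pairs and in TGFβR-KO in 4. Without cells whose barcode was shared, Cycling made up 2.23% of TGFβR-KO (1.73 to 2.83), 0.820% of TGFβR-CA (0.376 to 1.55) and 3.23% of TGFβR-WT (2.22 to 4.53). The Cycling shares, the summed levels and the balance of mitosis and replication are also given without them.

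The promoters of the replication and mitosis lists differed in the short sequence motifs they held, a property read from the genome and not from the expression values. Promoter windows of 300 bases, from 250 before to 50 after the transcription start, were taken from RefSeq on GRCm38.p6 and matched 50 of the 59 genes. *Mcm4*, *Gins2*, *Rfc2*, *Ccna2*, *Aurkb*, *Stmn1*, *Smc4*, *H2afx* and *Tpx2* had none. The E2F-type letters TTCCCGC or TTGGCGC were present, on either strand, in 11 of 18 replication genes (61.1%) and 3 of 23 mitosis genes (13.0%), against 15.1% of the 5910 expressed genes with a window. CHR-type letters, TTTGAA or TTCGAA, were present in 19 of 23 mitosis genes (82.6%) and 3 of 18 replication genes (16.7%), against 15.7% of expressed genes. CCAAT, the box bound by NF-Y, was present in 20 of 23 mitosis genes (87.0%) and 11 of 18 replication genes (61.1%), against 42.8%. Both a CHR-type match and CCAAT occurred in 18 of 23 mitosis genes (78.3%) and 6.36% of expressed genes. Over all 27025 genes with a window, 7.79% held an E2F-type match, 21.7% a CHR-type match and 41.1% CCAAT. *Fen1*, *Lig1*, *Mcm7* and *Uhrf1* had more than 1 window and thus more room for a match. A match is a run of letters and was not tested as a binding site.

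Promoters of 4 replication genes with E2F-type letters and 4 mitosis genes with CHR-type letters are shown to make this contrast visible, from 120 bases before to 30 after the start, on the strand of the gene. Capitals mark E2F-type, CHR-type and CCAAT letters on either strand, so that a motif on the other strand appears as its reverse complement. *Pclaf* encodes a PCNA-binding factor, *Mcm3* and *Mcm6* are helicase subunits and *Rrm1* is the large subunit of ribonucleotide reductase. *Ccnb2* encodes cyclin B2, *Cdc20* the activator of the anaphase-promoting complex, *Cenpf* a kinetochore protein and *Top2a* the topoisomerase that untangles sister chromatids.
Pclaf (chr9:65890203-65890352, + strand): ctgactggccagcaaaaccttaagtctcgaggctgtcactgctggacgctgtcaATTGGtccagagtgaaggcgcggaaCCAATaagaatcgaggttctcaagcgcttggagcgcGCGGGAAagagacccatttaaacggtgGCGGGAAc
Mcm3 (chr1:20820283-20820432, - strand): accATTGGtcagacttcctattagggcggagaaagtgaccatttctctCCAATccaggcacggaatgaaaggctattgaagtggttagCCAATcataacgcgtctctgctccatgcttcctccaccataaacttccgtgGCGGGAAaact
Mcm6 (chr1:128359676-128359825, - strand): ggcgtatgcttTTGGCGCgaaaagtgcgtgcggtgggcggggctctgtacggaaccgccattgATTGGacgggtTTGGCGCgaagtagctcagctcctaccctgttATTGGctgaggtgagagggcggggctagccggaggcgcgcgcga
Rrm1 (chr7:102441575-102441724, + strand): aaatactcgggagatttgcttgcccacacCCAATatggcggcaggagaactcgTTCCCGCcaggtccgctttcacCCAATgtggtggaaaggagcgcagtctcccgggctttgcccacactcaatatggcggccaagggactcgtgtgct
Ccnb2 (chr9:70421525-70421674, - strand): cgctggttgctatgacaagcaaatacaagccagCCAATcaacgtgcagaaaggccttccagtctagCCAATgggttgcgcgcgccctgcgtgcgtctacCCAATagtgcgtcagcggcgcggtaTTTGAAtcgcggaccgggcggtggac
Cdc20 (chr4:118437314-118437463, - strand): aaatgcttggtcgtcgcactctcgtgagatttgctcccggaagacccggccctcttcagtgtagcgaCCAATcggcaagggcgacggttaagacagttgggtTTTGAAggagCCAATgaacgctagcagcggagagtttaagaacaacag
Cenpf (chr1:189688057-189688206, - strand): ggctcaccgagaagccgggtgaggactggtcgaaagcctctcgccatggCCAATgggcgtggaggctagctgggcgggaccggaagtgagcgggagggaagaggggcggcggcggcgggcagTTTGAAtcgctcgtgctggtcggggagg
Top2a (chr11:99024160-99024309, - strand): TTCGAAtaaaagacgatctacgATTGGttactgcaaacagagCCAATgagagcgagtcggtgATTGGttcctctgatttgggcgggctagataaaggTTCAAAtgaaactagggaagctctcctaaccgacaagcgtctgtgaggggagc
In these windows the CHR-type letters lay within 25 bases of the start in all 4 mitosis genes, at 4 bases after it in *Ccnb2*, 18 before it in *Cdc20*, 2 after it in *Cenpf* and 23 before it in *Top2a*, which held a further match 120 bases before. The E2F-type letters of the replication genes lay at 5 bases before and 22 after the start in *Pclaf*, 19 after it in *Mcm3*, 109 and 46 before it in *Mcm6* and 67 before it in *Rrm1*. These genes were chosen as examples, and positions in the other genes of the lists are not given.

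Together the 59 genes stood at 337 corrected UMIs per 10000 in Cycling cells of TGFβR-KO, 191 in TGFβR-CA, 258 in the larger and 355 in the smaller TGFβR-WT set. Outside Cycling they stood at 25.5, 22.8, 26.1 and 25.0, in the same order. The genes therefore took 3.37%, 1.91%, 2.58% and 3.55% of all corrected UMIs of a Cycling cell and 0.228% to 0.261% of those of other cells. The ratio of Cycling to other cells was 13.2 in TGFβR-KO, 8.39 in TGFβR-CA, 9.89 in the larger and 14.2 in the smaller TGFβR-WT set. Without shared barcodes it was 13.1 in TGFβR-KO and 10.3 in the larger set. All 41 genes that passed the minimum were at least 1.5 times higher in Cycling cells of both the larger TGFβR-WT set and TGFβR-KO, as were 11.7% of all genes, while 15.6% of all genes were lower. For the 12 that passed only through Cycling cells, the minimum itself favored this outcome. The cluster was made from these genes among others, so this is a description and no test.

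The lists parted in how sharply they marked the Cycling cells. The mitosis list rose from 1.79 to 102 in TGFβR-KO, a ratio of 57.0, from 1.04 to 46.4 in TGFβR-CA (44.5), from 1.57 to 72.7 in the larger TGFβR-WT set (46.4) and from 1.25 to 73.5 in the smaller set (58.9). Without shared barcodes the ratio was 55.3 in TGFβR-KO and 50.8 in the larger set. The replication list went from 5.97 to 75.1 in TGFβR-KO (12.6 times), from 6.09 to 52.5 in TGFβR-CA (8.62), from 6.83 to 66.7 in the larger (9.77) and from 5.88 to 110 in the smaller TGFβR-WT set (18.6). The broad list had the lowest ratios, 9.0, 5.90, 6.71 and 9.60 in that order. It was set apart as genes that other cells also express, so the sorting itself favored this outcome. The lists were also chosen with earlier results of these data known. Cycling cells, 0.820% to 5.78% of each library, held 62.2% of the mitosis UMIs in TGFβR-KO, 28.8% in TGFβR-CA, 74.8% in the larger and 49.3% in the smaller TGFβR-WT set, but 26.7%, 7.25%, 38.4% and 23.5% of the replication UMIs.

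**Figure D1:**
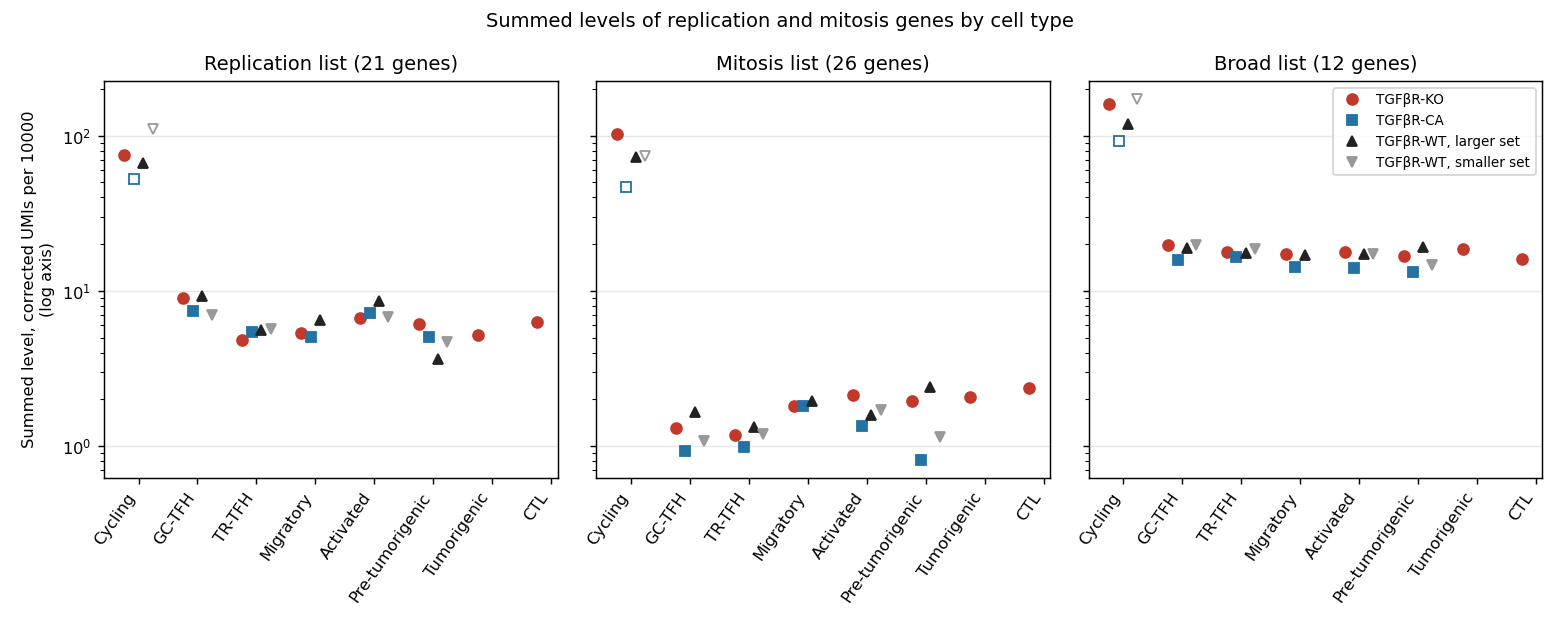
Summed level of the replication, mitosis and broad lists (corrected UMIs per 10000, log axis) in each deposited cell type, with 1 point per library and open points for fewer than 20 Cycling cells. Other types with fewer than 20 cells in a library are left out. Cycling stands above every other type in all 3 lists, and outside Cycling the mitosis list lies between 0.815 and 2.42 and the replication list between 3.62 and 9.25.

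Origin licensing and the helicase were represented by 9 genes, whose summed level in Cycling cells was 20.9 in TGFβR-KO, 20.1 in TGFβR-CA, 19.1 in the larger and 36.5 in the smaller TGFβR-WT set. *Mcm3* was at 3.69, 5.58, 3.99 and 8.11 in Cycling cells of those 4 libraries. *Mcm7* was at 3.97, 3.05, 3.32 and 4.06, and *Mcm6* at 3.41, 2.79, 3.79 and 6.08. Together with *Mcm2*, *Mcm4* and *Mcm5* these genes encode the ring of 6 subunits that unwinds DNA. Outside Cycling *Mcm6* was at 0.643 in TGFβR-KO, 1.153 in TGFβR-CA, 1.03 in the larger and 0.913 in the smaller TGFβR-WT set, and 89.2% of its UMIs came from such cells. *Cdc6*, one of the loaders of the ring, had 61 UMIs in all, of which 23% were outside Cycling, whereas its partner *Cdt1* had 454, of which 86.6% were.

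Among 7 genes of the fork, ligation and replication-coupled chromatin, *Pclaf* was the sharpest. It stood at 15.2 in Cycling cells of TGFβR-KO, 7.61 in TGFβR-CA, 11.6 in the larger and 13.7 in the smaller TGFβR-WT set, and at 0.0475, 0.0184, 0.0637 and 0.00838 outside Cycling. It was detected in 94.8% of Cycling and 1.04% of other TGFβR-KO cells. *Pcna*, the sliding clamp to which the Pclaf protein binds, was at 4.77, 3.55, 4.18 and 9.13 in Cycling cells but was also detected in 23.9% of other TGFβR-KO and 20.8% of other TGFβR-WT cells. *Lig1*, the ligase that seals Okazaki fragments, was at 3.22, 1.78, 4.12 and 5.58. *Rfc2* and *Rpa2*, a clamp loader subunit and a subunit of the single-strand binding complex, were among the genes least tied to Cycling, with 91.5% and 89.95% of their UMIs in other cells. *Rfc2* stood at 1.67, 1.78, 1.93 and 2.03 in Cycling cells and at 0.506, 0.509, 0.692 and 0.511 outside. *Rpa2* stood at 1.30, 0.508, 0.797 and 3.04 in Cycling cells and at 0.296, 0.306, 0.233 and 0.310 outside.

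For nucleotide supply, *Dut*, which keeps uracil out of DNA, was at 8.83 in Cycling cells of TGFβR-KO, 6.85 in TGFβR-CA, 9.37 in the larger and 9.63 in the smaller TGFβR-WT set. It was also the replication gene with the most UMIs outside Cycling, 15.0% of that list. *Rrm2*, the regulated subunit of ribonucleotide reductase, was at 6.51, 2.03, 4.85 and 9.13 in Cycling cells and at 0.0735, 0.0207, 0.0382 and 0.0251 outside. *Tyms*, thymidylate synthase, was at 3.90, 2.03, 2.92 and 7.10. *Rrm2* thus had 25.0% of its UMIs outside Cycling, while *Rrm1*, which encodes the other subunit of the same enzyme, had 72.2%.

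Of the cyclins, *Cdk1* and its Cks partners, *Cks1b* was at 6.29 in Cycling cells of TGFβR-KO, 4.57 in TGFβR-CA, 4.72 in the larger and 4.56 in the smaller TGFβR-WT set. *Ccnb2* was at 4.83, 6.35 and 3.25 in the first 3 and was not detected in the smaller set, and *Cks2* was at 3.44, 4.57, 3.06 and 4.06. *Ccna2*, cyclin A2, was close to exclusive to Cycling cells, with 3.91% of its 179 UMIs elsewhere, and stood at 3.81, 1.02, 2.59 and 3.04 in Cycling cells. *Ccnb2* had 11.9% of its UMIs elsewhere. *Cks2* had 72.8%.

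The mitotic kinases and checkpoint genes gave few UMIs, 40 to 132 per gene. *Aurkb*, the kinase of the chromosomal passenger complex, was at 2.20 in Cycling cells of TGFβR-KO, 1.59 in the larger and 2.03 in the smaller TGFβR-WT set and had no UMI in TGFβR-CA. *Bub1b*, a spindle checkpoint kinase, was at 1.46 in TGFβR-KO, 0.761 in TGFβR-CA and 0.930 in the larger set, and *Plk1* was at 1.18, 0.254 and 0.930. Neither had a UMI in the 4 Cycling cells of the smaller set. *Bub1*, another checkpoint kinase, was at 1.02, 0.254 and 0.332 in TGFβR-KO, TGFβR-CA and the larger set, with 2.50% of its 40 UMIs outside Cycling. *Cdc20*, *Cdca3*, *Ube2c* and *Ube2s* were grouped around the anaphase-promoting complex. *Cdc20* was at 2.70, 2.28 and 2.59 in TGFβR-KO, TGFβR-CA and the larger set and at 0 in the smaller set. *Cdca3* was at 2.91, 1.27, 2.66 and 3.55 in the 4 libraries. *Ube2c*, the ubiquitin-conjugating enzyme of the complex, was at 0.898, 0.761, 0.332 and 1.01, with 7.14% of its 42 UMIs outside Cycling. Its companion *Ube2s* behaved differently, with 91.2% of 137 UMIs outside and levels of 0.186, 0.254, 0.199 and 1.01 in Cycling cells against 0.0529, 0.0944, 0.0297 and 0.151 in others.

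Centromere and kinetochore genes summed to 30.5 in Cycling cells of TGFβR-KO, 21.1 in TGFβR-CA, 19.8 in the larger and 22.3 in the smaller TGFβR-WT set. *Cenpa*, the histone H3 variant that marks centromeres, was at 6.41, 8.12, 5.05 and 6.59, and it was the mitosis gene with the most UMIs outside Cycling. *Birc5*, survivin of the chromosomal passenger complex, was at 8.43, 4.57, 6.11 and 7.10 in Cycling cells, and 9.59% of its UMIs lay elsewhere. *Cdca8*, borealin of the same complex, was at 5.02, 4.06, 3.52 and 3.55. Of the spindle genes, *Tubb5* and *Tuba1b* encode tubulins. *Tubb5* was at 27.4, 7.87, 17.4 and 29.4 in Cycling cells and *Tuba1b* at 18.2, 3.55, 17.1 and 22.8. *Stmn1*, which destabilizes microtubules, was at 12.5, 12.2, 8.57 and 20.8. The 9 Cycling cells of TGFβR-CA were below the other libraries for both tubulins and not for *Stmn1*. *Hmmr*, a spindle-associated gene, was at 3.19 in TGFβR-KO and 2.52 in the larger TGFβR-WT set, with no UMI in TGFβR-CA or the smaller set, and 6.62% of its 151 UMIs were outside Cycling.

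Genes of chromosome structure and chromatin gave the most UMIs. *Hmgb2*, an architectural chromatin protein, was detected in every Cycling cell, at 58.9 in TGFβR-KO, 40.1 in TGFβR-CA, 43.6 in the larger and 47.7 in the smaller TGFβR-WT set, and in 76.7% of other TGFβR-KO cells. *Top2a* was at 14.1, 2.28, 12.4 and 16.2 in Cycling cells, and *H2afz*, the H2A.Z variant, at 10.0, 10.2, 7.90 and 16.2. *Mki67*, which codes for the proliferation marker Ki-67, was at 12.2, 4.82, 7.24 and 11.7. *Smc4* and *Anp32e*, a condensin subunit and an H2A.Z chaperone, marked the other end, with 93.3% and 90.9% of their UMIs outside Cycling. *Smc4* was at 5.08, 2.54, 3.79 and 4.06 in Cycling cells and at 1.65, 1.64, 2.34 and 1.95 outside, and *Anp32e* was at 5.95, 4.31, 4.65 and 6.08 against 1.52, 1.43, 1.72 and 1.53. Its partner in condensin, *Smc2*, had 73.9% of its UMIs outside.

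**Figure D2:**
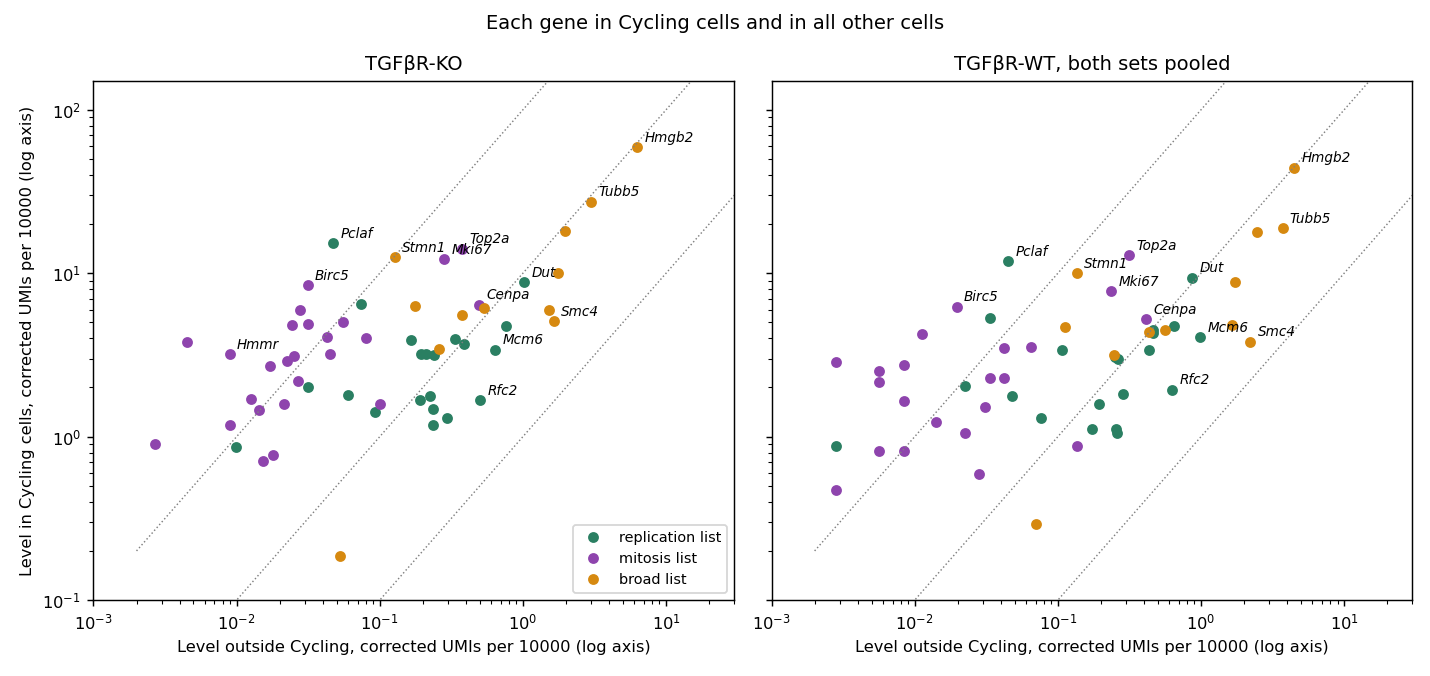
Level of each gene in Cycling cells (vertical, log axis) against its level in all other cells (horizontal, log axis), in corrected UMIs per 10000, for TGFβR-KO and for TGFβR-WT with both sets pooled. Points are genes, colors are lists, dotted lines mark ratios of 1, 10 and 100, and genes at 0 in either are left out. *Pclaf* and *Birc5* lie above the line of 100 and *Smc4* between those of 1 and 10.

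Of the 59 genes, 29 had more than 50% of their UMIs outside Cycling, 17 of 21 in the replication list, 2 of 26 in the mitosis list (*Cenpa* and *Kif20b*) and 10 of 12 in the broad list. In Cycling cells of TGFβR-KO, 42 genes were detected in at least 50% of cells, and in those of TGFβR-WT 33 were, where cells had a median of 1919 and 1657 detected genes. Outside Cycling, 2 genes (*Hmgb2* and *Tubb5*) were detected in at least 50% of TGFβR-KO cells.

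Within Cycling, cells ranged from those with mostly replication UMIs to those with mostly mitosis UMIs. Summed over cells, mitosis exceeded replication UMIs 1.36 times in TGFβR-KO and 1.09 times in the larger TGFβR-WT set, and fell short at 0.884 in TGFβR-CA and 0.671 in the smaller set, where 9 and 4 cells stand behind the value. More mitosis than replication UMIs were counted in 44 of 77 cells of TGFβR-KO (57.1%, 45.4 to 68.4), 4 of 9 of TGFβR-CA (44.4%, 13.7 to 78.8) and 18 of 45 of TGFβR-WT (40%, 25.7 to 55.7). The intervals of these shares overlapped. Without shared barcodes the shares were 59.1% (46.3 to 71.0) in TGFβR-KO and 40.6% (23.7 to 59.4) in TGFβR-WT. A median of 17 mitosis and 14 replication genes was detected per Cycling cell of TGFβR-KO, 7 and 12 in TGFβR-CA, and 11 and 9 in TGFβR-WT. Single cells spanned 5.04 to 176 replication UMIs and 5.83 to 292 mitosis UMIs per 10000 in TGFβR-KO, and 3.25 to 178 and 2.36 to 246 in the larger TGFβR-WT set.

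**Figure D3:**
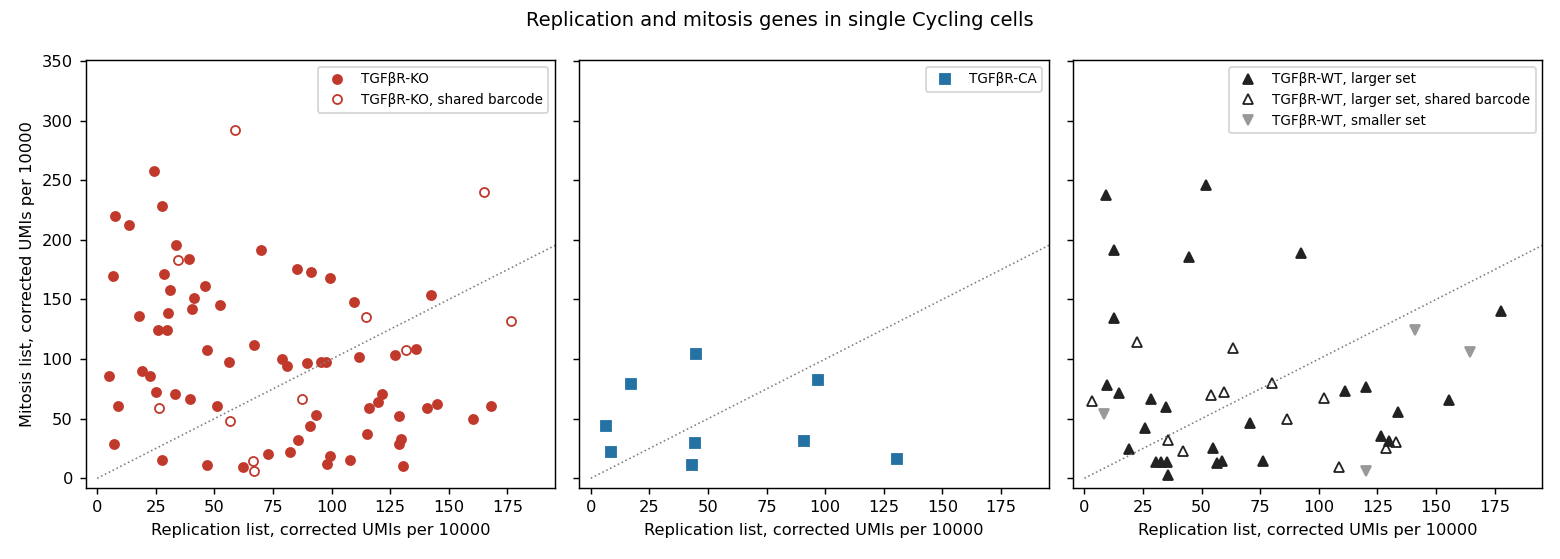
Replication list (horizontal) and mitosis list (vertical) in single Cycling cells, in corrected UMIs per 10000, by library. Open symbols are cells whose barcode also occurs in another library, and the dotted line marks equal values. In TGFβR-KO 44 of 77 cells had more mitosis than replication UMIs, in TGFβR-WT 18 of 45.

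Over all cells, the 59 genes summed to 34.2 in TGFβR-KO, 24.3 in TGFβR-CA, 40.1 in the larger and 30.4 in the smaller TGFβR-WT set. The TGFβR-WT sets themselves thus lay on either side of TGFβR-KO, and TGFβR-CA lay below both. Without shared barcodes the sums were 33.0, 24.3, 36.6 and 30.5. Relative to pooled TGFβR-WT the ratio was 0.927 for TGFβR-KO and 0.659 for TGFβR-CA. The median log2 ratio of the 41 genes to TGFβR-WT, after 0.1 was added per 10000, was -0.10 in TGFβR-KO and -0.52 in TGFβR-CA, where that of all 7490 genes was -0.13 and -0.09. A sum over all cells cannot tell fewer dividing cells from less RNA in each, so the same levels were taken outside Cycling, where the ratios of the sum were 0.990 and 0.885.

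In TGFβR-CA, 14 of the 41 genes (34.1%) were lower than in both TGFβR-WT sets over all cells, against 2.75% of all genes, and none was higher, against 1.26%. Of the 14, 8 reached the minimum only through Cycling cells. Cycling cells were 0.820% of TGFβR-CA against 5.78% and 1.34% of the TGFβR-WT sets, so this count cannot be told apart from the share of Cycling cells. They were 8 mitosis genes (*Cdk1*, *Top2a*, *Birc5*, *Kif11*, *Nusap1*, *Cenpe*, *Cdca8* and *Mki67*), 5 replication genes (*Rrm2*, *Tyms*, *Mcm2*, *Mcm5* and *Pclaf*) and *Stmn1*. *Nusap1*, which bundles spindle microtubules, was at 0.00684 in TGFβR-CA, 0.194 in TGFβR-KO, 0.267 in the larger and 0.0742 in the smaller TGFβR-WT set. *Rrm2* was at 0.0388 in TGFβR-CA, 0.254 in TGFβR-KO, 0.327 and 0.173 in the TGFβR-WT sets, and *Top2a* at 0.230, 0.764, 1.09 and 0.478. *Mki67* was at 0.203, 0.618, 0.646 and 0.445. *Cdk1* was at 0.0342, 0.192, 0.243 and 0.107, *Birc5* at 0.0411, 0.267, 0.391 and 0.124, and *Pclaf* at 0.0867, 0.475, 0.758 and 0.231. In each of these the smaller TGFβR-WT set, with 1.34% Cycling cells, lay between TGFβR-CA and the other libraries. The folds were smaller for the helicase genes, with *Mcm2* at 0.189 in TGFβR-CA against 0.375 and 0.321 in the TGFβR-WT sets and *Mcm5* at 0.194 against 0.415 and 0.330. *Kif11*, a spindle motor, was at 0.0297 in TGFβR-CA against 0.180 and 0.0742, *Cdca8* at 0.0662 against 0.275 and 0.115, *Stmn1* at 0.210 against 0.638 and 0.478, and *Tyms* at 0.139 against 0.279 and 0.214. The count was 13 without cells that share a barcode, a setting for which the share of all genes was not computed.

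Outside Cycling, none of the 29 genes was lower in TGFβR-CA than in both TGFβR-WT sets, against 2.65% of all genes, and none was higher, against 1.19%. Of the 14 genes called over all cells, 6 could be compared there. *Mcm2* and *Mcm5*, with 79 and 77 UMIs outside Cycling in TGFβR-CA, were at 0.182 and 0.177 there against 0.301 and 0.293 in the larger and 0.260 and 0.201 in the smaller set. The other 8 had too few UMIs outside Cycling and are given as UMIs alone. *Birc5* had no UMI there in TGFβR-CA, 6 in the larger and 1 in the smaller TGFβR-WT set, and *Nusap1* had 2, 3 and 1.

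In TGFβR-KO, 1 of the 41 genes was called higher over all cells (*Cenpe*, 2.94% of all genes called) and 1 lower (*Lig1*, 5.43% of all genes called). These counts depended on the TGFβR-WT set compared, since 15 genes were higher and 1 lower without the larger set, and 1 higher and 3 lower without the smaller set. In TGFβR-CA, 2 were higher and 14 lower without the larger set, and 0 and 27 without the smaller set. The share of all genes was not computed for single sets, so these counts show only how far the number depends on the set. *Cenpe*, the kinesin of the kinetochore, was at 0.157 in TGFβR-KO, 0.0548 in TGFβR-CA, 0.0997 in the larger and 0.0989 in the smaller TGFβR-WT set, and it was not called once cells with a shared barcode were left out. In Cycling cells it was at 4.09, 3.05, 1.46 and 2.03.

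*Lig1* was at 0.278 in TGFβR-KO, 0.621 in TGFβR-CA, 0.662 in the larger and 0.585 in the smaller TGFβR-WT set over all cells. Outside Cycling it was at 0.193, 0.610, 0.441 and 0.503, so TGFβR-KO stood at 0.437 and 0.383 times the TGFβR-WT sets, and all 3 other libraries stood above it. It was the only one of the 29 genes called lower in TGFβR-KO outside Cycling, against 5.96% of all genes, and none was called higher, against 2.95%. A *Lig1* UMI was found in 6.59% of other TGFβR-KO and 13.5% of other TGFβR-WT cells. The same direction held in 3 of 4 types examined. In GC-TFH cells *Lig1* was at 0.333 in TGFβR-KO, 0.999 in TGFβR-CA, 0.614 in the larger and 0.993 in the smaller TGFβR-WT set. In TR-TFH cells it was at 0.166, 0.563, 0.410 and 0.467, and in Activated cells at 0.204, 0.507, 0.498 and 0.407. In Pre-tumorigenic cells it was at 0.218, 0.157, 0.220 and 0.0495 and was not called. The genes called lower in TGFβR-KO were *Lig1* and *Cks2* in GC-TFH cells, against 5.98% of all genes, *Lig1*, *Cks2* and *Mcm4* in TR-TFH cells, against 8.01%, *Lig1* and *Mcm6* in Activated cells, against 8.82%, and *Tubb5* in Pre-tumorigenic cells, against 11.9%. In GC-TFH, TR-TFH and Activated cells these are 6.90%, 10.3% and 6.90% of the 29 genes, near the shares of all genes. In Pre-tumorigenic cells the 1 gene is 3.45% of the 29, below the share of all genes. *Mcm6* leaned the same way outside Cycling, at 0.643 in TGFβR-KO against 1.15, 1.03 and 0.913, and in Activated cells it was at 0.776 against 1.95 in TGFβR-CA, 1.65 in the larger and 1.71 in the smaller TGFβR-WT set. Over both conditions, both directions and these 4 types, 0 to 4 of the 29 genes were called, with 4 for TGFβR-KO higher in Pre-tumorigenic cells (*Mcm3*, *Pcna*, *Stmn1* and *Mcm5*), against 8.07% of all genes, and for TGFβR-CA lower in Activated cells (*Cks2*, *Pcna*, *Mcm7* and *Mcm5*), against 8.11%.

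**Figure D4:**
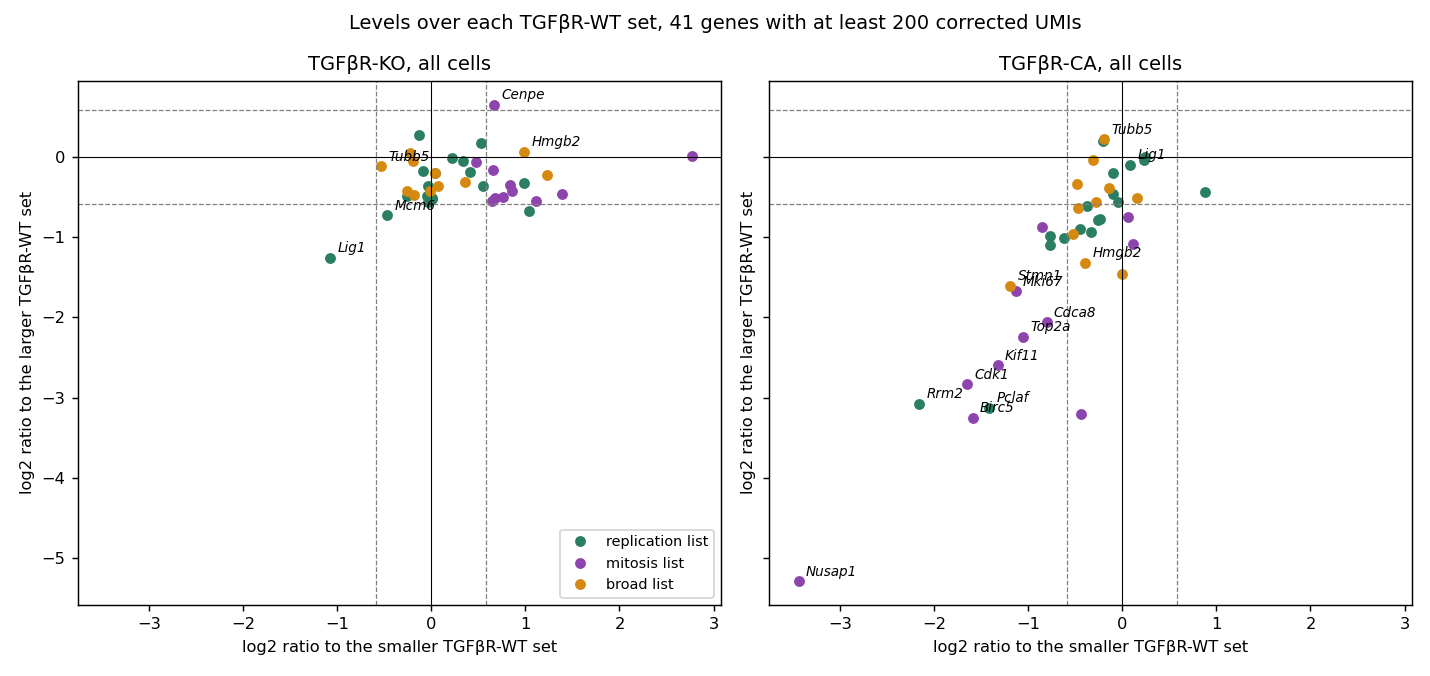
log2 ratio of each of the 41 genes to the smaller TGFβR-WT set (horizontal) and to the larger set (vertical) over all cells, for TGFβR-KO and TGFβR-CA, with dashed lines at 1.5 times. *Ccnb2*, which had no UMI in the smaller set, is not plotted. In TGFβR-CA 14 genes lie in the lower left corner, and in TGFβR-KO *Lig1* lies there alone and *Cenpe* in the upper right.

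Some genes with under 200 UMIs outside Cycling were present there, though rare, in TGFβR-KO. The 5 named here were picked because they stood at least 1.5 times above both TGFβR-WT sets outside Cycling, so their direction was fixed in advance. They passed the minimum only through Cycling cells, and nothing is concluded from them. Cells outside Cycling numbered 2898 in TGFβR-KO, 1089 in TGFβR-CA, 668 in the larger and 294 in the smaller TGFβR-WT set. *Cdk1* had 90 UMIs outside Cycling in TGFβR-KO, 13 in TGFβR-CA, 9 in the larger and 6 in the smaller TGFβR-WT set, at levels of 0.0807, 0.0299, 0.0382 and 0.0503. *Rrm2* had 82, 9, 9 and 3, at 0.0735, 0.0207, 0.0382 and 0.0251. *Cenpf*, *Nusap1* and *Ccnb2* had 35, 31 and 27 UMIs in TGFβR-KO, 2, 3 and 1 in the larger set and 0, 1 and 0 in the smaller set.

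Outside Cycling the libraries also split another way, with the larger TGFβR-WT set and TGFβR-KO on one side and TGFβR-CA and the smaller set on the other. *Hmgb2* was at 6.32 in TGFβR-KO and 5.14 in the larger set, and at 2.65 in TGFβR-CA and 3.21 in the smaller set. The same split of at least 1.5 times in every pair was found for *Top2a*, making 2 of 29 genes (6.90%) against 2.04% of all genes. *Top2a* was at 0.377 and 0.365 against 0.212 and 0.218. *Tubb5* ran opposite, at 2.98 and 3.11 against 4.60 and 4.90, without a gap of 1.5 times in every pair, and no gene of the 29 had such a gap in that direction, against 1.3% of all genes. TGFβR-KO and TGFβR-CA were sequenced in different batches, and the shared barcodes joined TGFβR-KO to the larger set. Whether this split follows the batches was not tested, since the sets are not tied to them.

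Among types other than Cycling, the replication list was highest in GC-TFH cells, the follicular helper cells of germinal centers, in all 4 libraries. It stood there at 9.01 in TGFβR-KO, 7.47 in TGFβR-CA, 9.25 in the larger and 6.95 in the smaller TGFβR-WT set. In TR-TFH cells, the other follicular helper cluster, it stood at 4.83, 5.43, 5.60 and 5.65, so the ranges did not overlap. Activated cells came second in every library, at 6.64, 7.19, 8.55 and 6.84, and their range overlapped that of GC-TFH cells. Types are ranked here where a library held at least 20 of their cells.

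Gene by gene, 12 of 29 (41.4%) were higher in GC-TFH than TR-TFH cells in all 4 libraries, against 27.8% of all genes, 7 of 15 in the replication list, 0 of 3 in the mitosis list and 5 of 11 in the broad list. *Mcm6* was at 1.32 in GC-TFH and 0.565 in TR-TFH cells of TGFβR-KO, 1.32 and 0.915 in TGFβR-CA, 1.47 and 0.846 in the larger and 1.53 and 0.561 in the smaller TGFβR-WT set. A gap of at least 1.5 times in all 4 libraries was found for *Cks2*, 1 of 29 (3.45%), a share near that of all genes (3.81%), and in the other direction for none, against 0.933%. *Cks2* was at 0.252 and 0.0933 in TGFβR-KO, 0.429 and 0.270 in TGFβR-CA, 0.396 and 0.196 in the larger and 0.455 and 0.168 in the smaller set. *Smc4* and *Hmgb2* were lower in GC-TFH than in TR-TFH cells in all 4 libraries, 2 of 29 against 11.1% of all genes. For *Smc4* the values were 1.96 and 3.02 in TGFβR-KO, 1.49 and 1.86 in TGFβR-CA, 2.36 and 2.90 in the larger and 1.86 and 2.43 in the smaller set.

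The mitosis list ordered the types differently. In TGFβR-KO it was at 2.37 in CTL, 2.13 in Activated, 2.07 in Tumorigenic, 1.95 in Pre-tumorigenic, 1.82 in Migratory, 1.32 in GC-TFH and 1.19 in TR-TFH cells. TR-TFH was lowest in the larger TGFβR-WT set and TGFβR-KO, Pre-tumorigenic in TGFβR-CA at 0.815 and GC-TFH in the smaller set at 1.08. No order was shared by all libraries. Tumorigenic and CTL cells numbered 361 and 321 in TGFβR-KO but 2 and 3 in TGFβR-CA, so no comparison of these types between conditions was made. Mitosis UMIs outside Cycling came mainly from *Cenpa* (28.9%), *Top2a* (21%), *Mki67* (15.8%) and *Kif20b* (6.70%), which together made up 72.4%. Replication UMIs there came from more genes, with *Dut*, *Mcm6*, *Pcna* and *Rfc2* giving 48.6%.

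Most of the 4949 cells outside Cycling (63.1%) had no mitosis UMI. At least 2 distinct mitosis genes were detected in 329 of 2898 such cells of TGFβR-KO (11.4%, 10.2 to 12.6), 61 of 1089 of TGFβR-CA (5.60%, 4.31 to 7.14) and 70 of 962 of TGFβR-WT (7.28%, 5.72 to 9.10). Within types, TGFβR-KO and TGFβR-WT stood at 8.18% and 8.54% in GC-TFH, 4.82% and 5.87% in TR-TFH and 11.7% and 10.1% in Migratory cells. They stood at 14.2% and 9.40% in Activated and 10.0% and 5.06% in Pre-tumorigenic cells, and the intervals overlapped in each type. CTL and Tumorigenic cells numbered 321 and 361 in TGFβR-KO but 13 and 5 in TGFβR-WT, so the totals compare unlike mixes of types. In TGFβR-KO the share was 17.4% in CTL (13.5 to 22.0), 15.8% in Tumorigenic (12.2 to 19.97), 14.2% in Activated (10.5 to 18.5) and 4.82% in TR-TFH cells (3.14 to 7.03), with medians of 3643, 3940, 3743 and 3575 corrected UMIs per cell. No type of this sort is known to lack these genes, so the share of TR-TFH cells is the lowest available background. Without *Cenpa*, *Mki67*, *Top2a* and *Kif20b* the TGFβR-KO share outside Cycling was 2.21%.

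At least 3 replication genes were detected in 27.0% of cells outside Cycling in TGFβR-KO (25.4 to 28.6), 31.0% in TGFβR-CA (28.3 to 33.9) and 29.9% in TGFβR-WT (27.1 to 32.9). In GC-TFH cells the share was 37.1% (31.8 to 42.7), 40.7% (34.7 to 46.9) and 41.2% (34.3 to 48.4), and in TR-TFH cells 20.2% (16.9 to 23.9), 26.8% (23.2 to 30.7) and 26.5% (22.5 to 30.8). The intervals of the 2 types did not overlap in any of the 3 conditions with TGFβR-WT pooled. They overlapped in the smaller TGFβR-WT set alone, at 48.3% (34.95 to 61.8) in GC-TFH and 31.6% (23.8 to 40.2) in TR-TFH cells, and not in the larger, at 38.3% (30.2 to 46.9) and 24.5% (19.9 to 29.5). GC-TFH cells had more detected genes, with medians of 1567.5 against 1328 in TGFβR-KO. Whether detection alone gives this gap was not tested, and the UMI level of the list, given above, comes from the same cells.

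Few cells outside Cycling carried a full set. At least 5 mitosis genes were found in 16 of 4949 cells, 13 of TGFβR-KO (0.449%), 3 of TGFβR-WT (0.312%) and 0 of 1089 in TGFβR-CA. The last allows a share of up to 0.275% by a limit of 3 counts and 0.338% by the exact interval. None of the 16 shared a barcode, and those of TGFβR-KO held 7.80% of its mitosis UMIs outside Cycling. They were Migratory (5), Pre-tumorigenic (4), Tumorigenic (3), GC-TFH (2), Activated (1) and CTL (1) cells. At least 10 replication genes were found in 33 cells, of which 18 were GC-TFH cells and 4 also had 5 or more mitosis genes. They were 24 of 2898 cells in TGFβR-KO, 2 of 1089 in TGFβR-CA, 6 of 668 in the larger and 1 of 294 in the smaller TGFβR-WT set.

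**Figure D5:**
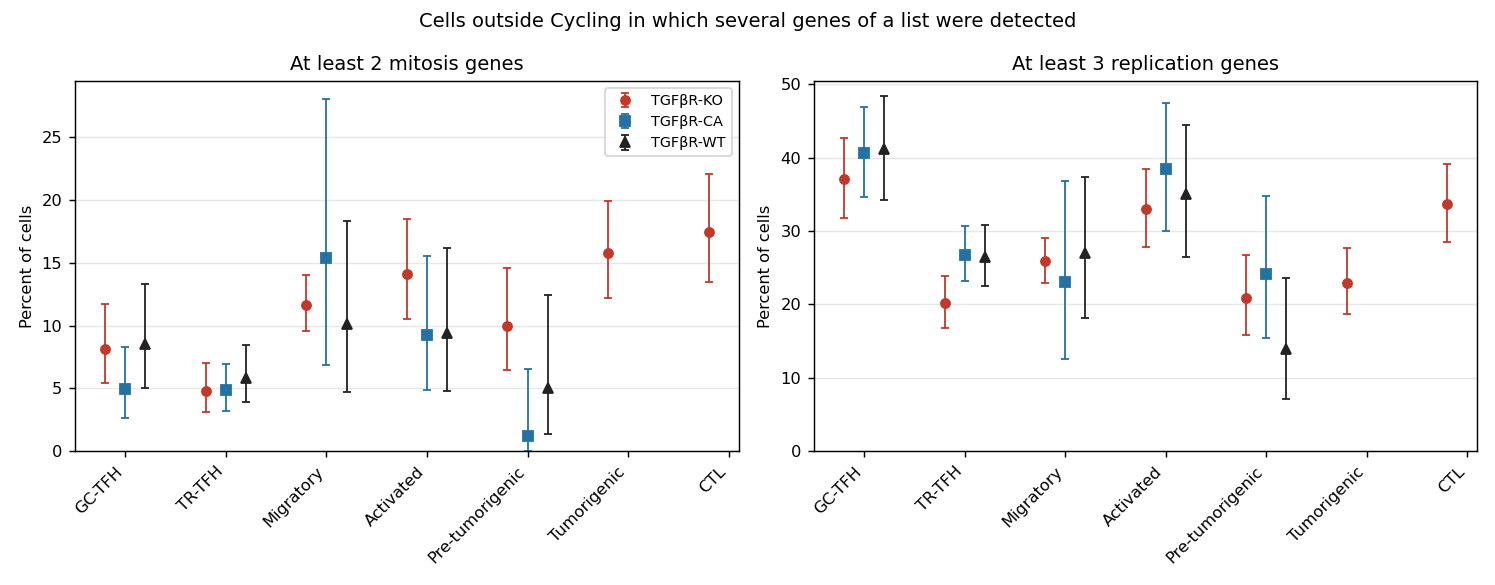
Percent of cells outside Cycling in which at least 2 mitosis genes (left) or at least 3 replication genes (right) were detected, by type and condition, with exact 95% confidence intervals that cover counting error only. Types with fewer than 20 cells in a condition are left out. In TGFβR-KO the mitosis share runs from 4.82% in TR-TFH to 17.4% in CTL cells, and the replication share is highest in GC-TFH cells.

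Related cell cycle genes that are not among the 59 followed them in part. In Cycling cells of both the larger TGFβR-WT set and TGFβR-KO, at least 1.5 times higher levels were found for 18 of 20 other replication genes that passed the minimum, 11 of 12 other mitosis genes, 8 of 11 histone genes and 3 of 3 genes of the E2F, MYBL2 and FOXM1 group (*E2f2*, *Tfdp1* and *Lin54*), against 11.7% of all genes, though *Pold1*, *Prc1* and *E2f2* were among those that passed the minimum only through Cycling cells. Of 5 G1 cyclins and kinases, *Cdk2* and *Cdk4* were higher. Among 12 inhibitors of the cycle, *Cdkn1a*, *Cdkn2c* and *Cdkn2d* were higher and *Cdkn1b*, *Btg1* and *Btg2* lower, against 15.6% of all genes. *Btg1*, an antiproliferative gene of resting lymphocytes, fell from 25.3 outside to 7.16 in Cycling cells of TGFβR-KO, and from 31.3 to 6.84 in the larger TGFβR-WT set. Outside Cycling, 53 related genes had at least 200 UMIs, of which 2 were called higher in TGFβR-KO and 2 lower (3.77% each, against 2.95% and 5.96% of all genes), and 3 higher and 2 lower in TGFβR-CA (5.66% and 3.77%, against 1.19% and 2.65%). The inhibitor *Cdkn1a*, which encodes p21, was called higher in TGFβR-KO, at 0.480 against 0.140 in TGFβR-CA, 0.132 in the larger and 0.0419 in the smaller TGFβR-WT set. *Rb1* was called lower there, at 0.303 against 0.833, 0.463 and 0.628. *Hells* was also called higher there and *Hmgn2* lower, while in TGFβR-CA *Slbp*, *Hist1h1e* and *Hist1h4d* were called higher and *Tob1* and *Hist1h1c* lower.

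Genes other than the 59 were ranked by Pearson's r of their log2 level with that of each list over 23 combinations of type and library. For the mitosis list the highest were *Hist1h2bj* (0.96), *Fbxo5* (0.96), *Prc1* (0.96), *Hist1h2ae*, *Selenoh*, *Dek*, *Hist1h1b*, *Arhgap11a*, *Hist1h3i* and *Orc6* (0.92), and for the replication list *Asf1b* (0.95), *Siva1*, *Rfc3*, *Nucks1*, *Fbxo5*, *Snrpd1*, *Incenp*, *Gmnn*, *Cbx5* and *Banf1* (0.91). The 2 Cycling combinations with at least 20 cells have the highest levels of both lists, and combinations share libraries, so these values are a description. *Fbxo5*, which encodes an inhibitor of the anaphase-promoting complex, was at 2.57 in Cycling and 0.0690 in other cells of TGFβR-KO. Over the 21 other combinations the genes most like the mitosis list were *Lgals3* (0.86), *Itga2* (0.86) and *Cd47* (0.82), and those most like the replication list *Slc41a1* (0.89), *Cinp* (0.88) and *Timm10* (0.87).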

How the data were processed

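Droplet-based 3′ scRNA-seq was deposited as 1 table of 13265 genes by 5080 cells with the cluster name of each cell. The authors used Cell Ranger 3.1.0 with mm10 and Seurat, kept cells with 1000 to 5000 features and under 10% mitochondrial reads, and integrated on 3000 features. Per the file, each deposited value is a natural log, taken by the authors after adding 1 to the UMI corrected by SCTransform. Undoing the log gave whole numbers, which are model-corrected and not raw counts, so no count model, test between conditions or interval over UMIs was used. No paired or blocked comparison was made.

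Corrected UMIs were summed per gene and group and divided by the total, per 10000. Shares of cells have exact Clopper-Pearson 95% intervals. Cells were grouped by the prefix of their name. The table has no row of conditions, and prefix R was taken as TGFβR-KO because its number of cells equals that in the methods. TGFβR-WT cells were also split by barcode suffix into the larger and the smaller set. Genes named were the 3 highest of each role in Cycling cells, the 6 with the largest and 6 with the smallest share of UMIs outside Cycling, every gene called, the related genes called and the 10 most alike genes per list. Members, lists and rules were chosen with earlier results of these data known. Doublets were sought with Scrublet (scanpy 1.11.5), which called 4 cells in TGFβR-KO, 18 in TGFβR-CA, 1 in the larger and 20 in the smaller TGFβR-WT set, none of them Cycling, so it hardly worked in TGFβR-KO and the larger set. Doublet removal before deposit was not given in the sources used here. Python 3.11.15, numpy 2.4.6, scipy 1.17.1, pandas 2.3.3 and matplotlib 3.10.9 were used, and the scripts were tested on simulated data. Alternatives were the total, the mean over cells, the call rule, shared barcodes, doublets, Cycling cells, type weights and leaving out each TGFβR-WT set. The minimum outside Cycling, leaving out single genes, and leaving out a TGFβR-WT set for the Cycling ratio, were chosen after seeing the data.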

Additional observations from a re-analysis of the deposited data

Results flagged for a closer look

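The summed level of the replication list relative to TGFβR-WT lay above 1 in some cell types and below 1 in others, each time against both TGFβR-WT sets. No minimum size was set, and some values lie close to 1. Ratios to the larger and the smaller set follow in brackets. In TGFβR-KO the ratio was 1.41 in Pre-tumorigenic cells (1.69 and 1.32), but 0.860 in TR-TFH (0.863 and 0.855) and 0.823 in Activated cells (0.777 and 0.972). In TGFβR-CA it was 1.16 in Pre-tumorigenic (1.39 and 1.08) and 0.967 in TR-TFH cells (0.970 and 0.961). The mitosis list in TGFβR-KO was at 1.32 in Activated (1.34 and 1.25) and 0.920 in TR-TFH cells (0.889 and 0.992). These differences between types were not tested, since TGFβR-KO and TGFβR-CA are 1 library each, and the Pre-tumorigenic values of TGFβR-WT rest on 27 and 52 cells.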

How the results depend on the processing

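Of 83 recomputed values, 53 stayed within the set margin, 28 moved and 2 reversed. The summed level of TGFβR-KO relative to TGFβR-WT (0.927) reversed to 1.06 when cell types were weighted as in the pooled series, and ranged from 0.854 to 1.13 when one TGFβR-WT set was left out, 1.13 being without the larger set. That of TGFβR-CA (0.659) moved to 0.885 without Cycling cells and 0.832 with weighted types, and ranged from 0.607 to 0.800 by set. The ratio of Cycling to other cells in TGFβR-WT (10.5) ranged from 9.89 to 14.2, and mitosis over replication UMIs within Cycling (1.02) from 0.671 to 1.09. Genes called in TGFβR-KO (2) numbered 1 at a ratio of 2, with 0.1 added or without shared barcodes, 6 without Cycling cells but 1 (*Lig1*) with the minimum taken outside Cycling, and 4 to 16 by set, of which 15 were higher without the larger set and 3 lower without the smaller. In TGFβR-CA (14) they numbered 9 at a ratio of 2, 8 with 0.1 added, 5 without Cycling cells but 0 with the minimum taken outside Cycling, and 16 to 27 by set. The minimum taken outside Cycling has its shares given above, but the other altered counts have no share of all genes beside them. They show only how far the number moved. Carriers of mitosis genes outside Cycling (11.4% in TGFβR-KO, 7.28% in TGFβR-WT) were 41.2% and 33.4% at 1 gene, 2.66% and 1.25% at 3, and 2.21% and 1.46% without *Cenpa*, *Mki67*, *Top2a* and *Kif20b*, with 6.12% to 7.78% by set. Carriers of replication genes (27.0% and 29.9%) were 53.1% and 55.3% at 2 genes and 12.7% in both at 4, with 28.4% to 33.3% by set. The causes were not tested. No paired analysis was possible because the cells carry no replicate number that ties them to a sample. With 9 and 4 Cycling cells, TGFβR-CA and the smaller set limit every Cycling value.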
